A study of Mus musculus with 9 samples.

Results

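The effect of OSCAR overexpression on cultured chondrocytes was examined as the comparison of the 3 cultures labelled Ad-OSCAR, to which no 5-ASA was added, with the 3 cultures labelled Control. These are 6 of the 9 cultures of the study, chosen by their labels, and 15362 of the 55471 genes in the files had enough counts to be tested. The study asked what the osteoclast-associated receptor (OSCAR), a collagen receptor, does to chondrocytes and whether 5-ASA counters it. The 3 remaining cultures, Ad-OSCAR followed by 5-ASA, were used here only to estimate the spread between cultures.

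All cultures were primary mouse articular chondrocytes taken from femoral condyles and tibial plateaus of wild-type mice at postnatal day 5. By the labels, the cells were cultured for 3 days and infected with adenovirus at a multiplicity of infection (MOI) of 400 for 2 h, followed by 36 h of further culture, whereas the methods of the study give a higher dose of virus and shorter times. The Control cells carried an adenovirus without OSCAR, called Ad-Control in the methods, whose dose is not stated separately. Every plate, Control included, was coated with a collagen peptide that binds OSCAR, and no interleukin-1β was added. The methods name ICR or C57BL/6J mice as the source of chondrocytes, and the study's reporting form names ICR pups of both sexes, without tying either to these cultures. The study states in general that its n counts independent biological samples and that its experiments were repeated, without naming these cultures. Nothing in the labels says that the 3 cultures of a group came from separate animals. The p-values therefore measure the spread between these cultures, which may be technical.

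Articular chondrocytes keep cartilage alive by making a matrix of type II collagen and aggrecan under the transcription factor SOX9, and they rarely divide in the adult joint. In osteoarthritis they lose this matrix program and secrete enzymes, cytokines and nitric oxide that damage the tissue. OSCAR is best known from the osteoclast lineage, where it binds collagen and signals through the FcRγ adaptor, whose ITAM motif recruits the kinase SYK.

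Total counts lay between 19733431 and 28192725 per culture, and 12.6% to 14.0% of them fell on the 10 leading genes. Values are given as CPM, counts scaled by the TMM-adjusted size of the library, which compare 1 gene between cultures, or as TPM, which also divide by transcript length and allow levels of different genes to be compared. A gene is said to rise or fall only where edgeR's quasi-likelihood test gave p below 0.05 after Benjamini-Hochberg adjustment over all genes, and a DEG had in addition a |log2FC| above 1.5. The log2FC is the fitted log2 of Ad-OSCAR over Control, and its error is the standard error (SE) of that fit, with 3 cultures in each group. A number by which a gene rose or fell, or that follows its symbol in brackets, is its log2FC. In these bulk cultures, fewer cells of a kind and less RNA per cell cannot be told apart.

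*Oscar* itself (ENSMUSG00000054594.13, chr7:3609813-3616157 of GRCm38) was at 0.189, 0.123 and 0.211 CPM in the Control cultures and 6354, 7112 and 6528 CPM in the Ad-OSCAR cultures. These values pool viral and endogenous transcripts. *Oscar* transcripts made up 0.682% ± 0.029 of all TPM in the Ad-OSCAR cultures (SD, n = 3), and no Control culture overlapped with them.

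Most genes that could be tested differed between the groups. With Ad-OSCAR, 5031 genes (32.7% of those tested) were higher and 4952 (32.2%) were lower. The DEGs comprised 702 upregulated genes (4.57%) and 828 downregulated genes (5.39%). These percentages are the background against which each group of genes below is to be read, together with the median log2FC of 0.02 over all genes tested. The scaling keeps that median close to no change, so it cannot show a shift shared by most genes.

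The genes that fell and those that rose started from different levels. The 828 downregulated DEGs had a median of 6.63 TPM in Control and 1.07 TPM in Ad-OSCAR, and 335 of them were at 10 TPM or more in Control. The 702 upregulated DEGs had a median of 0.578 TPM in Control and 2.79 TPM in Ad-OSCAR. Of these, 419 (59.7%) had a mean below 1 TPM in Control, and 206 reached 10 TPM or more with Ad-OSCAR. In the plot of levels, the upregulated DEGs are therefore crowded at the left edge, whereas the downregulated DEGs include several of the most abundant transcripts of the cells. The transcripts that lost most were *Col2a1*, *Thbs1*, *H19*, *Col1a1*, *Eef1a1* and *Igf2*, by difference in mean CPM. Those that gained most, *Oscar* apart, were *Saa3*, *Mmp3*, *Spp1*, *Fn1*, *Mmp13* and *Cxcl5*.

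**Figure D1:**
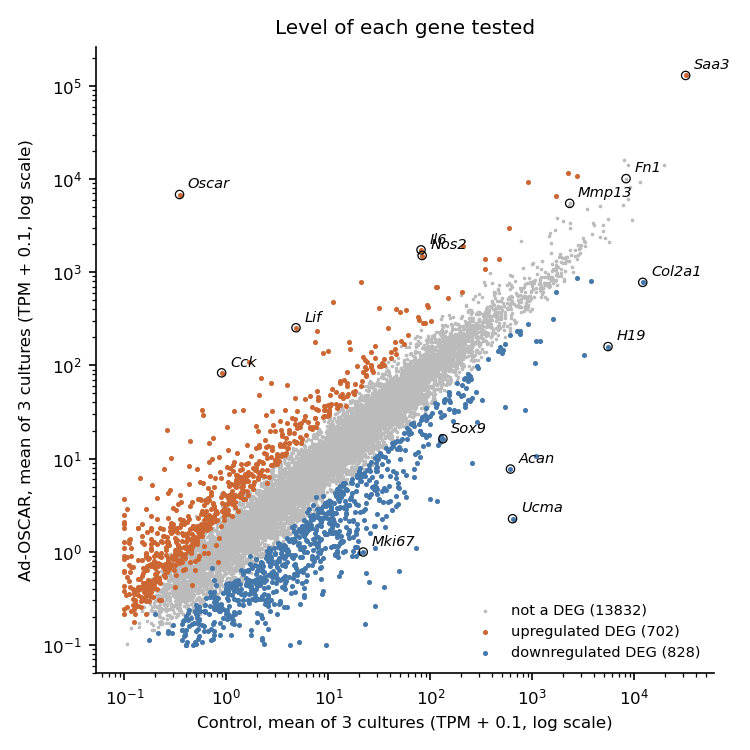
Mean TPM of each of the 15362 genes tested in the 3 Control cultures (horizontal) and the 3 Ad-OSCAR cultures (vertical), both on a log scale after adding 0.1. Orange points are the 702 upregulated and blue points the 828 downregulated DEGs. *Col2a1* and *Acan* lie far below the diagonal, and *Oscar* and *Cck* far above it.

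Genes that define cartilage fell with Ad-OSCAR, and most of them fell far. All 8 cartilage collagens tested were lower, 7 as DEGs, with a median log2FC of -3.56. All 19 of the cartilage proteoglycans and glycoproteins tested, of 24 listed, were lower, 12 as DEGs, with a median of -3.20. Both lists together, 32 genes, held 2.04% ± 0.14 of all TPM in Control and 0.219% ± 0.008 in Ad-OSCAR (SD, n = 3).

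*Col2a1*, the chain of type II collagen and the main collagen of cartilage, was at 36792, 31981 and 32799 CPM in the Control cultures and 2262, 2267 and 1947 CPM in the Ad-OSCAR cultures. In Control this was 12071 TPM, so the cells labelled chondrocytes carried this defining marker. The groups were far apart, and the log2FC was -3.97 ± 0.072, a fall of 15.7-fold (adjusted p = 2.99e-18, edgeR with Benjamini-Hochberg adjustment). Its partners in the heterotypic cartilage fibril fell beside it, with log2FC of *Col11a2* (-4.91) and *Col11a1* (-2.75) for type XI and *Col9a1* (-4.11), *Col9a2* (-3.15) and *Col9a3* (-3.08) for type IX collagen. *Col27a1*, a fibrillar collagen of growth cartilage, fell by 4.90 on the log2 scale. *Col10a1*, the collagen of hypertrophic chondrocytes, was the exception in size, with 29.3, 30.7 and 30.1 CPM in the Control cultures and 26.5, 24.6 and 25.2 CPM in the Ad-OSCAR cultures and a log2FC of -0.24 ± 0.068.

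*Acan*, the core protein of aggrecan, was at 2490.1, 2232 and 2241 CPM in the Control cultures and 27.8, 29.4 and 26.6 CPM in the Ad-OSCAR cultures. This fall of 83.2-fold (-6.38 ± 0.068 on the log2 scale, adjusted p = 2.46e-21, edgeR with Benjamini-Hochberg adjustment) took it from 609 to 7.61 TPM. *Ucma*, a small matrix protein of the upper growth plate zone, had 231, 197 and 199.7 CPM in the Control cultures and 0.543, 0.738 and 0.837 CPM in the Ad-OSCAR cultures. *Cnmd* (chondromodulin), which keeps vessels out of cartilage, had 809, 715 and 685 CPM in the Control cultures and 7.16, 7.26 and 6.77 CPM in the Ad-OSCAR cultures. The matrilins, which link collagen fibrils to other matrix molecules, also fell, with log2FC of *Matn3* (-7.47), *Matn1* (-6.19) and *Matn4* (-3.47). *Matn3* had 919 to 1143 counts in each Control culture and 4 to 10 in each Ad-OSCAR culture. *Comp*, a pentameric linker of collagen fibrils, fell from a mean of 1142 to 43.8 CPM. *Cytl1*, a small secreted protein, had 29 to 55 counts in each Control culture and 0 in each Ad-OSCAR culture, at least 17.2-fold lower with a floor of 3 counts per culture. Such limits, and the ratio intervals given for genes with few counts, cover counting error only. No list median given depends on the fitted value of such a gene.

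Not every abundant matrix gene of the cells took part to the same extent. *Hapln1*, the link protein that joins aggrecan to hyaluronan, was at 505, 484 and 455 CPM in the Control cultures and 219.9, 219 and 239 CPM in the Ad-OSCAR cultures, a log2FC of -1.09 ± 0.049. *Prelp* and *Epyc*, leucine-rich repeat proteoglycans, had log2FC of -0.83 and -0.17. The mean of *Epyc* went from 353 to 314 CPM. *Cytl1* apart, the falls within the matrix lists spanned 0.17 to 8.21 on the log2 scale.

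The transcription factors that build chondrocytes moved in both directions. Of 29 tested, 9 were higher and 16 lower, with 4 downregulated DEGs and a median of -0.37. *Sox9*, which drives *Col2a1* and *Acan*, was at 339.9, 286 and 328 CPM in the Control cultures and 39.3, 41.5 and 33.6 CPM in the Ad-OSCAR cultures, a fall of 8.34-fold (-3.06 ± 0.077 on the log2 scale, adjusted p = 1.93e-16, edgeR with Benjamini-Hochberg adjustment). Its partners split: *Sox6* was at 116, 114 and 113 CPM in the Control cultures and 46.6, 45.8 and 47.0 CPM in the Ad-OSCAR cultures, while *Sox5* was at 44.6, 46.4 and 46.9 CPM in the Control cultures and 93.1, 92.5 and 94.9 CPM in the Ad-OSCAR cultures. Both differences were larger than the spread between cultures, with log2FC of -1.30 ± 0.049 and 1.02 ± 0.047. *Foxa2*, a factor of hypertrophic chondrocytes, fell by 4.82 and *Sp7*, required for osteoblasts, by 2.89 on the log2 scale, from Control means of 3.25 and 2.14 CPM. The RUNX factors of cartilage and bone had log2FC of *Runx1* (0.25), *Runx2* (0.36) and *Runx3* (-0.77).

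Genes of the mineralizing and hypertrophic chondrocyte were mostly lower, 9 of 14 tested, of which 4 were DEGs. Among them were *Ibsp*, a bone sialoprotein (-2.74), *Pth1r*, the receptor for parathyroid hormone-related protein (-2.25), and *Alpl*, tissue-nonspecific alkaline phosphatase (-2.04). *Smpd3*, a sphingomyelinase needed for mineralization, fell by 5.19 on the log2 scale, with exons that overlap *Prmt7* on the other strand. *Spp1* (osteopontin) rose, from 2016 to 7879.7 CPM, as the only upregulated DEG of the list. *Vegfa*, which draws vessels into calcifying cartilage, rose by 0.67.

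The genes of the joint surface changed in both directions. Of 13 superficial zone genes tested, 5 were higher and 8 lower, 5 of them as DEGs, with a median of -1.19. *Prg4* (lubricin), the lubricant of the cartilage surface, was at 241, 256 and 243 CPM in the Control cultures and 906, 893 and 893 CPM in the Ad-OSCAR cultures. *Gdf5*, a joint-forming growth factor, was at 40.4, 44.1 and 43.4 CPM in the Control cultures and 121, 127 and 114 CPM in the Ad-OSCAR cultures. Both rose, 3.64-fold and 2.83-fold, and both have exons that overlap a gene on the other strand, *Tpr* and *Gm15557*. *Dcn* (decorin) rose by 1.10, to 3521 CPM. By contrast, *Vit* (-3.08), *Clu* (-2.20), *Thbs4* (-2.03), *Abi3bp* (-1.80) and *Dkk3* (-1.76) of the same list were downregulated DEGs.

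**Figure D2:**
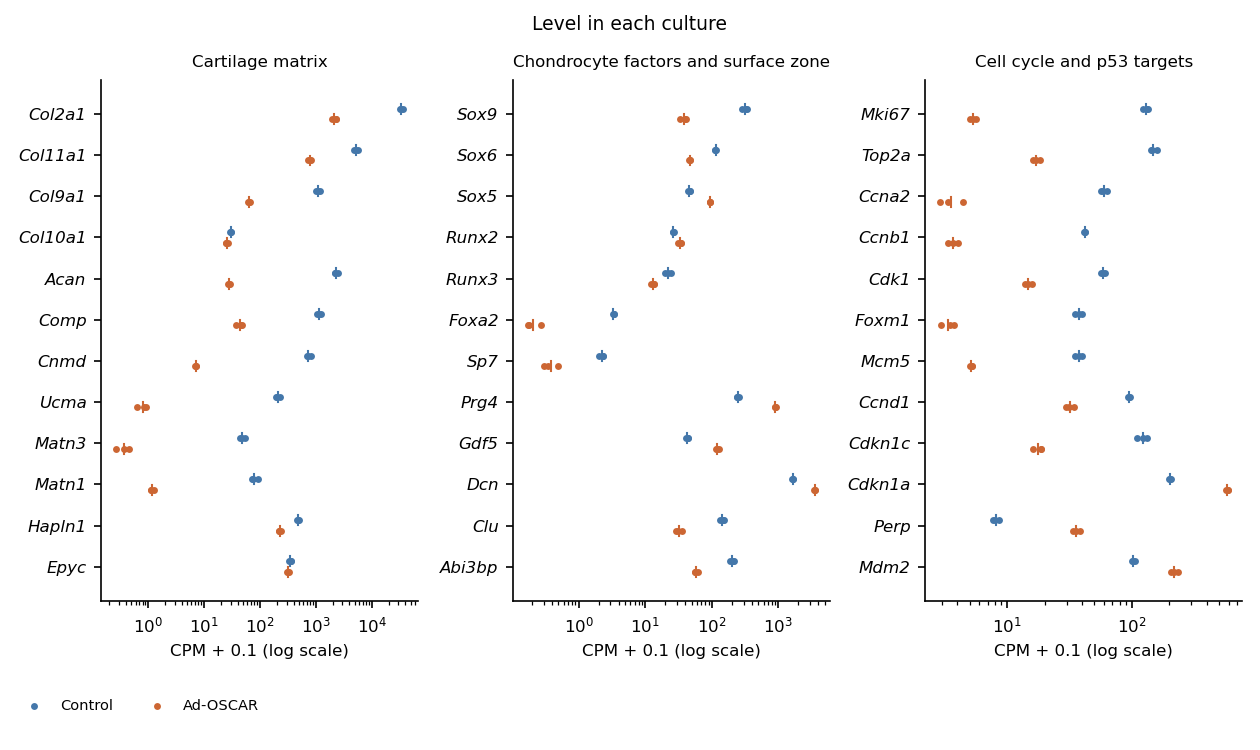
Level of 36 genes in each of the 3 Control (blue) and 3 Ad-OSCAR (orange) cultures, as CPM + 0.1 on a log scale, with a short line at each group mean. Left, the cartilage matrix genes fall by up to 8.21 on the log2 scale (*Ucma*). Middle, *Sox9* falls while *Sox5*, *Prg4*, *Gdf5* and *Dcn* rise. Right, the mitotic genes fall and *Cdkn1a*, *Perp* and *Mdm2* rise.

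The enzymes that make and finish the matrix were lower, mostly by less than the matrix genes themselves. Of 31 genes for glycosaminoglycan synthesis and sulfation, 25 were lower and 3 higher, with a median of -0.54. The largest falls were those of *Slc26a2*, the sulfate transporter mutated in cartilage dysplasias (-2.77), *Papss2*, which activates sulfate (-2.46), and *Chsy1*, a chondroitin synthase (-1.81). *Slc26a2* was at 223, 211 and 198 CPM in the Control cultures and 32.3, 28.9 and 31.4 CPM in the Ad-OSCAR cultures. Of 30 procollagen processing genes, 27 were lower, 4 as DEGs, with a median of -0.92. *Serpinh1*, the collagen chaperone HSP47, fell from 2454 to 951 CPM, and *Pcolce2* and *Loxl4* fell by 3.28 and 3.13 on the log2 scale. *Lox*, which cross-links collagen, was higher by 0.29.

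The matrix genes typical of fibroblasts changed in both directions, with 9 of 27 higher and 18 lower (median -0.84). Both chains of type I collagen fell, *Col1a1* (-1.67) and *Col1a2* (-2.38). *Col1a1* was at 9436, 8562 and 9586 CPM in the Control cultures and 2958, 3041 and 2685 CPM in the Ad-OSCAR cultures. *Col3a1* and *Col5a2* rose by 0.72 and 0.79, and *Fn1* (fibronectin) by 0.22. *Tnc* (tenascin-C), an extracellular protein of injured tissue, was at 379, 391 and 387 CPM in the Control cultures and 1804, 1839.8 and 1735 CPM in the Ad-OSCAR cultures. It rose by 2.22 ± 0.041 and has exons that overlap a gene on the other strand. *Vcan*, the large proteoglycan of loose connective tissue and of immature cartilage, rose by 1.43 and *Col5a3* by 1.92. The list as a whole held 30531 ± 301 TPM in Control and 26468 ± 841 TPM in Ad-OSCAR (SD, n = 3 each).

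Genes of actin and contraction were lower without exception. All 20 tested fell, 9 as DEGs, with a median of -1.37. *Acta2*, smooth muscle α-actin, was at 235, 236 and 258 CPM in the Control cultures and 40.9, 45.4 and 37.6 CPM in the Ad-OSCAR cultures. *Cnn1*, a calponin of contractile cells, fell by 4.73, *Tagln* by 2.35 and *Vim*, the intermediate filament vimentin, by 2.25 on the log2 scale. Of 20 targets of YAP and TEAD, 10 were lower and 6 higher. The standard readouts *Ccn1* (-1.51) and *Ccn2* (-1.71) were downregulated DEGs, whereas *Nt5e*, an ecto-nucleotidase that makes adenosine, rose by 2.10.

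Genes of cell division fell together. All 36 genes of the G2 and M phases were downregulated DEGs, with a median of -3.49, against 5.39% of all genes tested. All 32 S phase genes fell, 14 as DEGs, with a median of -1.42. *Mki67*, the proliferation marker Ki-67, was at 133, 136 and 124 CPM in the Control cultures and 4.99, 5.54 and 5.24 CPM in the Ad-OSCAR cultures. *Ccna2*, *Plk1* and *Bub1b*, a cyclin, a kinase and a checkpoint kinase of mitosis, fell by 4.09, 3.99 and 3.97 on the log2 scale. *Ccna2* has exons that overlap *Exosc9* on the other strand. In S phase, *Cdc6* and *Mcm5*, which license origins, fell by 3.31 and 2.88, while *Pcna* fell by 0.83 and the licensing factor *Cdt1* by 0.29. The mitotic genes summed to 1077 ± 40.2 TPM in Control and 133 ± 2.25 TPM in Ad-OSCAR (SD, n = 3 each). The counts of genes lower in these 2 lists were 36 and between 30 and 32 under every alternative processing tried.

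The regulators of G1 did not move one way. *Cdkn1a*, the CDK inhibitor p21, was at 199, 202 and 205 CPM in the Control cultures and 586, 568 and 587 CPM in the Ad-OSCAR cultures, a rise of 1.52 ± 0.044 on the log2 scale. Its exons overlap an uncharacterized gene on the other strand. *Cdkn1c*, the imprinted inhibitor p57, fell from 122 to 17.7 CPM (-2.79). *Ccnd1*, cyclin D1, fell by 1.58, and *Cdkn2a*, the locus of p16 and p19ARF, by 0.34. For *Cdkn2b* (log2FC 0.12 ± 0.053, adjusted p = 0.0501, edgeR with Benjamini-Hochberg adjustment) no difference was called.

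p53 targets rose while cell cycle genes fell. Of 25 tested, 22 were higher, 4 as DEGs, and 1 (*Sesn1*) was lower, with a median of 0.94. *Perp*, a membrane protein of p53-dependent death, was at 7.65, 7.93 and 8.51 CPM in the Control cultures and 38.4, 33.5 and 35.8 CPM in the Ad-OSCAR cultures. *Mdm2*, which degrades p53, was at 102, 106 and 101 CPM in the Control cultures and 219, 206 and 235 CPM in the Ad-OSCAR cultures, and *Eda2r*, *Trp53inp1* and *Plk3* rose by 1.71, 1.37 and 1.36. Among the apoptosis genes of the list, *Bax* rose by 0.73, *Bbc3* (PUMA) by 0.72 and *Pmaip1* (NOXA) by 1.90, from 0.382 to 1.46 CPM.

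Promoter sequences of the mitotic genes are shown because their genes fell together. In RefSeq windows of GRCm38.p6, from 250 bases before to 50 bases after a gene's start, the letters TTTGAA (CHR, the cell cycle homology element), read on both strands, were found in 23 of 30 genes of the G2 and M phases with a window (76.7%), in 22.5% of downregulated DEGs, in 13.2% of upregulated DEGs and in 14.4% of all 10905 genes tested with a window. CCAAT was found in 76.7% and 42.9%. Both motifs were added after the data were seen. The last 110 bases before the start of *Cdk1* (chr10:69352913-69353022, minus strand), *Ube2c* (chr2:164769819-164769928, plus strand) and *Cdc20* (chr4:118437344-118437453, minus strand) are printed 5′ to 3′ on the gene's strand, with CHR and CCAAT letters of either strand in capitals.
*Cdk1*: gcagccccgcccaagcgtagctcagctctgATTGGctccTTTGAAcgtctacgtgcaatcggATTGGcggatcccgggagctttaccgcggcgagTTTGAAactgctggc
*Ube2c*: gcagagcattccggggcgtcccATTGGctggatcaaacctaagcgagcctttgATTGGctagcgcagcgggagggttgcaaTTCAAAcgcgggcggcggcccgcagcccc
*Cdc20*: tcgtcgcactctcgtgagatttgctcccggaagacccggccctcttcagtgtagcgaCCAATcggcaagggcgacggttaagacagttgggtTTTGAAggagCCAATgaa
*Cdk1* fell by 2.00, *Ube2c* by 3.67 and *Cdc20* by 3.36 on the log2 scale. A match to these letters is a description of the sequence and not evidence of binding.

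Genes of protein synthesis were mostly lower, none of them as DEGs. All 76 cytosolic ribosomal protein genes tested, a list added after the data were seen, were lower, with a median of -0.83 and a range from -1.31 to -0.34. Their share of all TPM was 11.5%, 11.4% and 11.4% in the Control cultures and 6.66%, 6.71% and 6.31% in the Ad-OSCAR cultures. The groups did not overlap, and all 76 were lower under every alternative processing tried. Some translation factors have mRNAs that, like those of ribosomal proteins, start with a pyrimidine tract (TOP mRNAs). Of 20 such factors 19 were lower, with a median of -0.81 and a range from -1.42 to 0.05. *Eef1a1*, which carries aminoacyl-tRNA to the ribosome, was at 8655, 8254 and 8646 CPM in the Control cultures and 2955, 3553 and 3014 CPM in the Ad-OSCAR cultures. Ribosomal proteins have many processed pseudogenes, so the estimates of single members are uncertain. Ribosome biogenesis genes fell in 22 of 29 cases, with a median of -0.41 and with *Npm1* (-1.03) and *Myc* (-0.93) among them.

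Genes of energy metabolism changed without reaching the limit for a DEG in most lists. None of 24 glycolysis genes, 23 genes of the TCA cycle and 76 nuclear genes of the respiratory chain was a DEG, against a background of 4.57% and 5.39%. Glycolysis genes were lower in 18 of 24 cases (median -0.50). *Pgk1* and *Eno1* fell by 1.08 and 1.05, and *Pdk1*, a pyruvate dehydrogenase kinase, by 1.12. *Slc16a1* and *Eno2* were higher by 0.39 and 0.60. Of 22 genes of the hypoxia response, 10 were higher and 10 lower, and the sign of their median depended on the processing. *Ndrg1* fell by 1.69 on the log2 scale. *Epas1* (HIF-2α), which drives matrix breakdown in osteoarthritis models, rose by 0.90, from 169.9 to 316 CPM, and *Hif1a* by 0.18.

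Of the 76 nuclear-encoded subunits of the respiratory chain and ATP synthase, 13 were higher, 29 lower and 34 not called, with a median of -0.08. Of the 13 proteins encoded in mitochondrial DNA, 11 were lower (median -0.43), and their share of all TPM was 5.06% ± 0.16 in Control and 3.83% ± 0.35 in Ad-OSCAR (SD, n = 3). Of 23 genes of the TCA cycle and pyruvate entry, 8 were higher and 12 lower, and of 23 genes of fatty acid oxidation 9 were higher and 4 lower. *Idh2*, which makes NADPH in mitochondria, fell by 1.32.

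Genes of serine and one-carbon metabolism were mostly lower. Of 17 genes tested, 13 were lower, 6 as DEGs, with a median of -1.09. *Aldh1l2*, the mitochondrial enzyme that oxidizes 10-formyl-tetrahydrofolate, was at 257, 246 and 233 CPM in the Control cultures and 31.5, 34.5 and 31.1 CPM in the Ad-OSCAR cultures, with exons that overlap a gene on the other strand. *Phgdh* and *Psat1*, the first steps of serine synthesis, fell by 1.57 and 1.99. ATF4 targets, which include both, were lower in 20 of 29 cases (median -0.46), whereas *Atf3* rose by 1.71. ER chaperones and genes of the unfolded protein response were lower in 24 of 28 cases, none as a DEG (median -0.50). *Hspa5* (BiP) changed by -0.23 and *Xbp1* by -0.68.

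Lysosome genes rose instead. Of 37 tested, 32 were higher and 1, *Tfeb*, was lower, with a median of 0.36. Most steps were small, such as *Lamp1* at 0.12 and *Ctsd* at 0.30. *Gpnmb*, a membrane glycoprotein, rose by 1.59 and *Gla*, α-galactosidase, by 1.74, both as DEGs. *Atp6v0d2*, a proton pump subunit of osteoclasts and macrophages, had 1 count in all Control cultures together and 40 to 54 counts in each Ad-OSCAR culture, a ratio with a 95% counting interval (exact binomial) from 19.6 to 4411. Of 29 NRF2 and glutathione genes 14 were higher and 9 lower, with *Nfe2l2* (1.13), *Gclc* (1.28) and *Sod2* (1.32) among those that rose.

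Secreted factors gained in share of the transcripts. Of 183 tested of 264 listed, 98 were higher and 52 lower, with 53 upregulated and 23 downregulated DEGs and a median of 0.43. Together they held 6.73% ± 0.13 of all TPM in Control and 19.8% ± 0.5 in Ad-OSCAR (SD, n = 3). Most of that gain was *Saa3*, serum amyloid A3, whose share went from 3.18% ± 0.06 to 12.9% ± 0.4. *Saa3* was at 7119, 6939 and 7132 CPM in the Control cultures and 28371, 30065 and 27327 CPM in the Ad-OSCAR cultures. Its relatives *Saa1* and *Saa2* had log2FC of 1.69 and -0.32, and the counting could have divided reads between these similar genes.

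Of 26 chemokines listed, 18 were tested, of which 14 rose, 12 as DEGs, with a median of 2.40. Under the alternative processings tried, 11 to 14 were higher and 9 to 12 were upregulated DEGs. The chemokines that recruit neutrophils through CXCR2 include *Cxcl1*, *Cxcl2*, *Cxcl3* and *Cxcl5*. *Cxcl1* was at 410.3, 469 and 431 CPM in the Control cultures and 4588, 4386 and 4076 CPM in the Ad-OSCAR cultures, and *Cxcl5* at 1417, 1475 and 1448 CPM in the Control cultures and 5301, 5591 and 5805 CPM in the Ad-OSCAR cultures. *Cxcl2* was at 4.58, 5.34 and 4.60 CPM in the Control cultures and 233, 236 and 227 CPM in the Ad-OSCAR cultures, a rise of 47.7-fold (5.58 ± 0.066 on the log2 scale, adjusted p = 9.35e-21, edgeR with Benjamini-Hochberg adjustment). *Cxcl3* rose by 3.17. The chemokines of monocytes and lymphocytes rose as well, with *Ccl2* (2.32), *Ccl7* (1.54), *Ccl20* (3.73), *Ccl5* (4.62) and *Cx3cl1* (2.48). *Ccl3* had 0 counts in the Control cultures and 19 to 24 in the Ad-OSCAR cultures, at least 5.88-fold higher. *Cxcl12*, which retains stem cells and leukocytes in stroma, was at 362, 342 and 337 CPM in the Control cultures and 103, 108 and 93.7 CPM in the Ad-OSCAR cultures, and fell, as did *Cxcl14* (-2.31), *Ccl9* (-1.83) and *Cxcl15* (-1.29).

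The promoters of *Cxcl1*, *Cxcl2* and *Cxcl3* are shown because they hold the same κB letters near the start. *Cxcl5* had no window. The letters GGAATTTCC, read on both strands, were found in 4 of 13 chemokine genes with a window (30.8%), in 1.77% of upregulated DEGs, in no downregulated DEG of the 570 with a window and in 0.449% of all genes tested. The last 110 bases before the start of *Cxcl1* (chr5:90891135-90891244, plus strand), *Cxcl2* (chr5:90903789-90903898, plus strand) and *Cxcl3* (chr5:90785991-90786100, plus strand) of GRCm38.p6, from RefSeq, follow with these letters in capitals.
*Cxcl1*: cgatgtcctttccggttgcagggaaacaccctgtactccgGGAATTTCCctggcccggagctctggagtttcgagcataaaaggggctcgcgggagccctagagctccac
*Cxcl2*: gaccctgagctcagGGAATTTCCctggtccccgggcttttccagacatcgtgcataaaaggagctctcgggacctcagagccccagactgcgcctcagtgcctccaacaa
*Cxcl3*: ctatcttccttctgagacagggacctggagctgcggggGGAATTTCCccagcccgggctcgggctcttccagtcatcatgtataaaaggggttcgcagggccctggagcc
The other κB form searched, GGACTTTCC, was found in 1.10% of upregulated DEGs, 0.877% of downregulated DEGs and 0.513% of all genes tested.

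Of 40 cytokines listed, 27 were tested, of which 16 rose, 13 as DEGs, and 5 fell. Under the alternative processings tried, 9 to 19 were higher and 7 to 16 were upregulated DEGs. *Il1a*, *Il12b* and *Csf2* had at most 3 counts in each Control culture, so they could be tested only because of their counts in infected cultures with OSCAR. Ligands of the IL-6 family were among the cytokines that rose. *Il6*, the namesake, was at 49.6, 60.1 and 49.0 CPM in the Control cultures and 1093, 1000.3 and 1091 CPM in the Ad-OSCAR cultures. *Lif*, which signals through the same gp130 subunit, was at 8.12, 10.4 and 9.14 CPM in the Control cultures and 538, 540.1 and 508 CPM in the Ad-OSCAR cultures, a rise of 57.2-fold (5.84 ± 0.071 on the log2 scale, adjusted p = 1.53e-20, edgeR with Benjamini-Hochberg adjustment). *Il11*, also a gp130 ligand, was at 0.519, 1.56 and 1.74 CPM in the Control cultures and 33.9, 37.9 and 32.8 CPM in the Ad-OSCAR cultures. *Clcf1* of the same family was higher by 0.42, and for *Ctf1* (4.24 to 4.23 CPM) no change was called.

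Interleukin-1α and the interleukin-1 receptor antagonist changed in opposite directions. *Il1a* was at 0.142, 0.0822 and 0.0529 CPM in the Control cultures and 5.39, 5.54 and 5.27 CPM in the Ad-OSCAR cultures. *Il1rn*, the natural receptor antagonist, was at 80.8, 82.3 and 81.4 CPM in the Control cultures and 10.5, 11.6 and 12.5 CPM in the Ad-OSCAR cultures. *Il1a* rose by 5.78 ± 0.28 and *Il1rn* fell by 2.83 ± 0.073 on the log2 scale. The size of the rise of *Il1a* is uncertain, since it had only 3, 2 and 1 counts in the Control cultures. In a list of 20 IL-1 family genes added after the data were seen, 6 of 15 tested were higher and 5 lower. Under the alternative processings tried, 2 to 7 were higher and 4 to 7 lower. *Il1f6* and *Il1f9*, IL-36 ligands, rose from 2 or fewer counts in each Control culture, with a 95% counting interval of the ratio from 13.4 to 413 for *Il1f6*. *Il1r1*, the signaling receptor, fell by 1.48, and *Nlrp3*, the inflammasome sensor, had 2 counts in Control against 54 to 74 in each Ad-OSCAR culture (ratio with a 95% counting interval from 19.8 to 603).

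Cytokines of the TNF family and colony-stimulating factors also changed. *Tnfsf15* (TL1A) was at 0.802, 1.11 and 0.793 CPM in the Control cultures and 64.7, 56.4 and 66.6 CPM in the Ad-OSCAR cultures. *Tnfsf11* (RANKL), which makes osteoclasts, was at 13.8, 17.8 and 16.5 CPM in the Control cultures and 86.1, 81.9 and 81.8 CPM in the Ad-OSCAR cultures, and its decoy receptor *Tnfrsf11b* (osteoprotegerin) was at 472, 481 and 494 CPM in the Control cultures and 472, 489 and 500.1 CPM in the Ad-OSCAR cultures, with no change called (0.01 ± 0.042). *Csf2* (GM-CSF) had 0 counts in Control and 11 to 20 in Ad-OSCAR, at least 4.34-fold higher, and *Csf3* (G-CSF) rose by 4.03 from 0.184 CPM. *Csf1* (M-CSF) fell by 1.58, from 366 to 123 CPM.

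**Figure D3:**
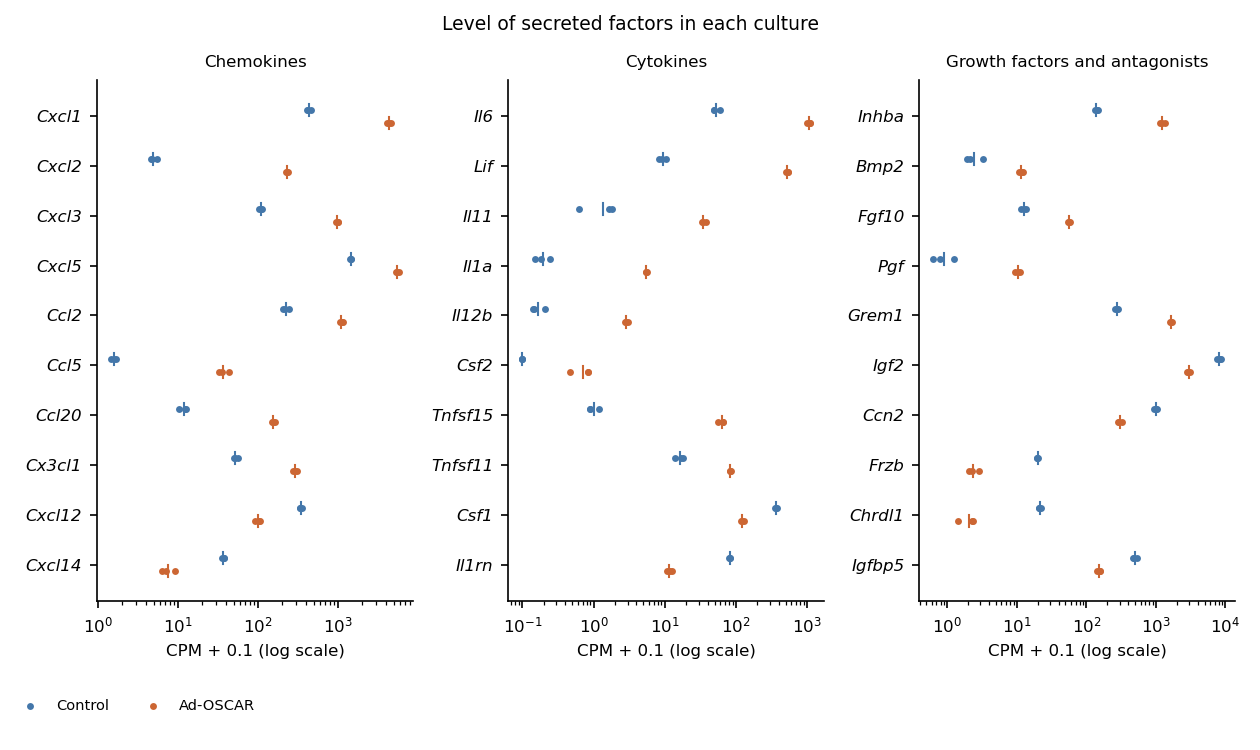
Level of 30 secreted factors in each of the 3 Control (blue) and 3 Ad-OSCAR (orange) cultures, as CPM + 0.1 on a log scale, with a short line at each group mean. Most chemokines and cytokines rise, while *Cxcl12*, *Cxcl14*, *Csf1*, *Il1rn*, *Igf2*, *Ccn2*, *Frzb*, *Chrdl1* and *Igfbp5* fall. *Lif* rises from 9.21 to 529 CPM and *Igf2* falls from 8129.6 to 2955 CPM.

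Growth factors rose more often than they fell, 33 against 13 of 58, with 14 upregulated and 5 downregulated DEGs (median 0.62). *Inhba*, the activin A subunit, was at 132, 145 and 139.8 CPM in the Control cultures and 1207, 1148 and 1329 CPM in the Ad-OSCAR cultures. *Bmp2* and *Bmp3* rose by 2.33 and 2.63, *Fgf9*, *Fgf10* and *Fgf18* by 2.95, 2.16 and 2.10, and *Pgf*, a ligand of VEGFR1, by 3.70. *Hgf*, a ligand of the MET receptor, rose by 2.17. *Areg*, an EGF receptor ligand, had 0 counts in Control and 16 to 22 in Ad-OSCAR, at least 5.03-fold higher. *Igf2*, a fetal growth factor, was at 8623, 7425 and 8340.4 CPM in the Control cultures and 2794, 3137 and 2934 CPM in the Ad-OSCAR cultures, a fall of 1.46 ± 0.052 on the log2 scale. The 5 downregulated DEGs were *Gdf10*, *Fgf21*, *Ccn1*, *Ccn2* and *Ccn5*.

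WNT ligands and the antagonists of WNT and BMP signaling were regulated in both directions. *Frzb*, a secreted WNT antagonist of cartilage, was at 19.7, 20.3 and 19.6 CPM in the Control cultures and 2.14, 1.97 and 2.73 CPM in the Ad-OSCAR cultures. The antagonists *Wif1* (-2.49), *Sfrp1* (-1.60), *Sfrp2* (-1.86), *Sostdc1* (-2.55) and *Dkk3* (-1.76) fell as well. *Dkk1* went the other way, with 0 counts in Control and 17 to 32 in Ad-OSCAR, at least 7.04-fold higher. Among BMP antagonists, *Chrdl1* fell by 3.45, while *Grem1* was at 261, 284 and 273 CPM in the Control cultures and 1647, 1603 and 1694 CPM in the Ad-OSCAR cultures. *Igfbp5* and *Igfbp6* fell by 1.71 and 2.40. Of 16 WNT, hedgehog and related ligands, 9 were higher and 4 lower. *Wnt10b* rose by 2.00 and *Wnt16*, a WNT of joint tissue, fell by 2.14. In all, 16 of 30 antagonists and binding proteins were lower, 9 as DEGs, and 8 higher, 4 as DEGs. *Pthlh*, which holds chondrocytes before hypertrophy, had 2, 3 and 0 counts in the Control cultures and 60, 46 and 37 in the Ad-OSCAR cultures.

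*Cck*, a gut and brain peptide, had 1 to 6 counts in each Control culture and was at 24.8, 26.8 and 23.1 CPM with Ad-OSCAR, a log2FC of 7.59 ± 0.21. With so few Control counts, the size of this rise is uncertain. *Penk* (proenkephalin), at 2917 TPM in Control, fell by 0.87, to 1081 CPM, and has exons that overlap a gene on the other strand. Only 13 of 41 neuropeptide and hormone genes had enough counts to be tested, of which 6 were higher and 2 lower.

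Acute phase and complement genes rose in 12 of 21 cases, 4 as DEGs, and fell in 8, 2 as DEGs. *Nos2*, the inducible nitric oxide synthase, was at 186, 204 and 213 CPM in the Control cultures and 3556, 3658 and 3584 CPM in the Ad-OSCAR cultures, a rise of 17.9-fold. *Hp* (haptoglobin) and *Lcn2* (lipocalin-2) rose by 1.99 and 0.69. Complement *C3* rose by 0.49 and *Cfb* by 0.83, whereas *C4b* and the inhibitor *Serping1* fell by 1.02 and 1.14. *C4b* reads could be shared with its copy *C4a*.

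Signaling genes that answer to NF-κB rose together. Of 23 subunits and feedback genes, 21 were higher, 6 as DEGs, and none was lower, also under every alternative processing tried, with a median of 0.74. *Nfkbia* (IκBα) was at 59.6, 57.9 and 67.0 CPM in the Control cultures and 205, 199 and 191 CPM in the Ad-OSCAR cultures. *Tnfaip3* (A20), which shuts the pathway down, was at 16.8, 20.1 and 17.6 CPM in the Control cultures and 96.7, 99.5 and 97.5 CPM in the Ad-OSCAR cultures, and *Nfkbiz* (IκBζ) rose from 159 to 675 CPM. The subunits themselves changed by less, with log2FC of *Rela* (0.52), *Relb* (0.99), *Rel* (0.68), *Nfkb1* (0.33) and *Nfkb2* (0.66). The promoter of *Tnfaip3* (chr10:19015411-19015550, minus strand of GRCm38.p6, from RefSeq) is shown because it holds both AP-1 and κB letters, in capitals, within the last 140 bases before the start.
*Tnfaip3*: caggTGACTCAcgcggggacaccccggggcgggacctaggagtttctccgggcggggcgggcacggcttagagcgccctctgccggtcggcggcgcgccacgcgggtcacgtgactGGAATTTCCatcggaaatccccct

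Immediate early factors rose in 17 of 28 cases and fell in 7. The orphan receptors *Nr4a1* (2.32), *Nr4a2* (2.75) and *Nr4a3* (2.61) were all upregulated DEGs. *Nr4a2* was at 11.3, 12.3 and 12.9 CPM in the Control cultures and 78.6, 83.9 and 82.7 CPM in the Ad-OSCAR cultures. Among the AP-1 subunits, *Fosl1*, *Junb* and *Batf* rose by 0.97, 0.63 and 1.20, and *Fos* and *Jun* fell by 0.61 and 0.26. *Fosl2*, a FOS-related subunit, rose by 0.22. The AP-1 letters TGANTCA, read on both strands, were found in 75 of 453 upregulated DEGs with a window (16.6%), in 49 of 570 downregulated DEGs (8.60%) and in 6.44% of all genes tested. Stretches of the promoters of *Lif* (chr11:4257328-4257417, plus strand) and *Il11* (chr7:4778142-4778251, minus strand) of GRCm38.p6, from RefSeq, are shown with these letters in capitals because both encode upregulated gp130 ligands.
*Lif*: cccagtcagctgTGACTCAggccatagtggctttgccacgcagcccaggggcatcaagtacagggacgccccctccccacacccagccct
*Il11*: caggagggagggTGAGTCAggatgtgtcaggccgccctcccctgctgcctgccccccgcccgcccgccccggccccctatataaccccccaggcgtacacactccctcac
The stretch of *Lif* ends 151 bases before the start and that of *Il11* at the base before it. The remaining motifs were found in 1.77%, 3.51% and 3.47% of upregulated DEGs, downregulated DEGs and all genes tested for CRE (TGACGTCA). For SOX9 (ACAATGG) the shares were 2.43%, 1.93% and 2.49%. For C/EBP (TTGCGCAA) they were 0.883%, 0.351% and 0.330%, for E2F (TTTCGCGC) 0.442%, 1.05% and 0.706%, and for the ATF4 element (TGATGCAA) 1.10%, 0.877% and 0.669%. The same short letters can fall in other motifs, CCAAT being the shortest.

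Of 33 interferon-stimulated genes listed, 28 were tested, of which 22 were higher, 8 as DEGs (median 0.93). These counts depended on the processing, with 15 to 22 higher and 2 to 9 upregulated DEGs under the alternatives tried. The list summed to 161 TPM in Control and 217 TPM in Ad-OSCAR. Its member with the highest level, *Ddx58*, rose by 0.17 and was not called under DESeq2. *Isg15*, a ubiquitin-like modifier, was at 1.18, 0.945 and 1.06 CPM in the Control cultures and 3.29, 3.12 and 3.71 CPM in the Ad-OSCAR cultures, and *Irf7* rose by 1.90. *Ifit3* (-1.42) and *Ifit2* (-0.48) were lower, while *Ifit1* rose by 2.22. In MHC class I and antigen processing, 11 of 15 were higher. *H2-K1* and *H2-D1* rose by 1.02 and 0.88, though reads of these similar genes may have been divided, and *Nlrc5*, their transactivator, was at 3.11, 4.85 and 4.39 CPM in the Control cultures and 36.8, 34.9 and 38.8 CPM in the Ad-OSCAR cultures.

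Genes of the ITAM pathway, through which OSCAR signals, were higher in 15 of 21 cases and lower in 2. Of the 28 genes listed, 7 had too few counts to be tested, among them *Fcer1g*, which encodes the FcRγ adaptor itself, and *Tyrobp*, *Btk* and *Vav1* had 0 counts in all 6 cultures. The kinase *Syk* itself was at 3.02, 3.45 and 3.44 CPM in the Control cultures and 3.66, 3.57 and 3.86 CPM in the Ad-OSCAR cultures, with no change called (0.16 ± 0.13, adjusted p = 0.298, edgeR with Benjamini-Hochberg adjustment). *Tec*, *Vav3* and *Lck* rose by 2.31, 2.02 and 1.88. *Blnk*, an adaptor of SYK, had 1 count in all Control cultures together against 20 to 30 in each Ad-OSCAR culture (ratio with a 95% counting interval from 10.1 to 2315).

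Transcription factors were called in both directions. Of 441 tested of 677 matched by name, 186 were higher and 140 lower (42.2% and 31.7%, beside 32.7% and 32.2% of all genes tested), with 36 upregulated and 19 downregulated DEGs. Their median was 0.09. Of 30 nuclear receptors, 15 were higher and 6 lower, with 6 upregulated DEGs and none downregulated. Of 56 homeobox factors outside the HOX clusters, 17 were higher and 21 lower, with 7 upregulated and 2 downregulated DEGs. Of 21 KLF and SP factors, 5 were higher and 11 lower, with 1 upregulated and 3 downregulated DEGs. Differences between families were not tested.

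Among factors averaging 1 CPM or more across the 6 cultures, those that rose most were *Foxs1* (4.62), *Nr2f2* (COUP-TFII, 2.76), *Nr4a2*, *Nr4a3*, *Bhlhe22* (2.43), *Etv4* (2.42), *Tbx3* (2.40), *Nr4a1*, *Etv1* (2.26) and *Irf5* (1.93). *Etv1* and *Etv4* are ETS factors induced by ERK signaling. *Etv1* was at 10.3, 11.4 and 9.88 CPM in the Control cultures and 49.5, 48.0 and 53.9 CPM in the Ad-OSCAR cultures. *Tbx3*, a limb and joint factor, was at 5.95, 6.45 and 7.08 CPM in the Control cultures and 36.2, 32.9 and 33.3 CPM in the Ad-OSCAR cultures. *Irf5* has exons that overlap *Tnpo3* on the other strand.

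At the same limit of 1 CPM, those that fell most were *Klf14* (-5.01), *Foxa2*, *Pax8* (-4.73), *Mxd3* (-4.37), *E2f7* (-3.88), *E2f8* (-3.82), *Foxm1* (-3.49), *Sox9*, *Sp7* and *Npas2* (-2.87). *E2f7*, *E2f8* and *Foxm1* belong to the cell cycle, and *Foxm1* was at 34.7, 37.4 and 39.8 CPM in the Control cultures and 3.36, 2.87 and 3.64 CPM in the Ad-OSCAR cultures. *Npas2*, a paralog of the circadian factor CLOCK, was at 26.5, 24.2 and 25.1 CPM in the Control cultures and 3.73, 3.28 and 3.35 CPM in the Ad-OSCAR cultures. *Mxd3* and *Pax8* have exons that overlap *Prelid1* and *Gm13415* on the other strand.

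**Figure D4:**
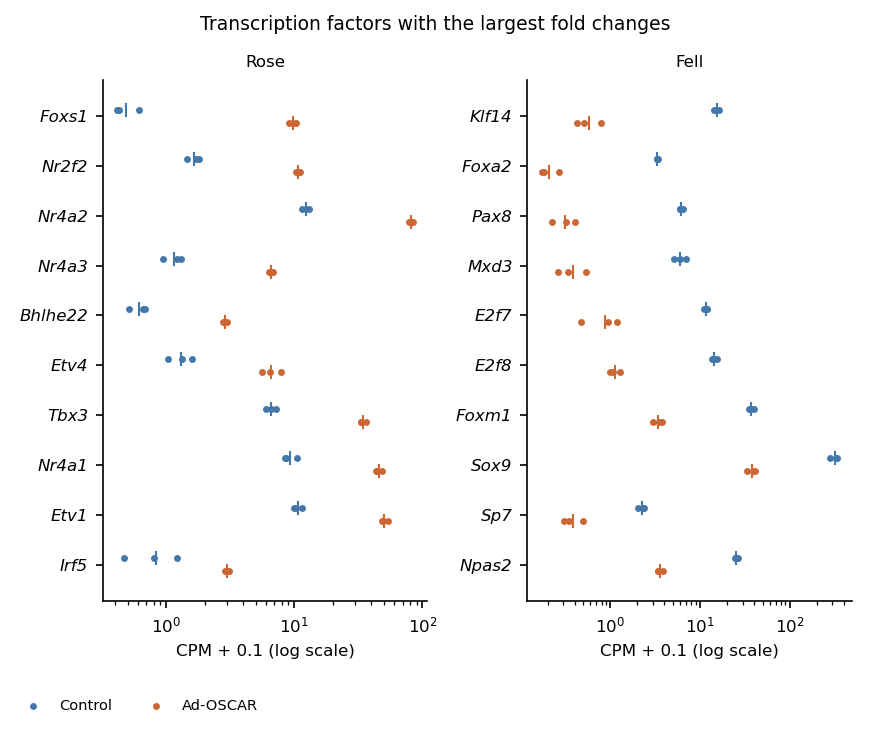
Level of the 10 transcription factor DEGs with the largest fold change in each direction, of those averaging 1 CPM or more across the 6 cultures, in each of the 3 Control (blue) and 3 Ad-OSCAR (orange) cultures, as CPM + 0.1 on a log scale, with a short line at each group mean. No factor shown has overlapping groups, which largely follows from their choice by fold change. The factors that rose are on the left and those that fell on the right, with log2FC from -5.01 (*Klf14*) to 4.62 (*Foxs1*).

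Across all genes with a mean of at least 5 CPM, the remaining large changes concerned genes of varied function. *Mylk2*, the myosin light chain kinase of skeletal muscle, was at 0.189, 0.247 and 0.370 CPM in the Control cultures and 35.6, 34.7 and 29.1 CPM in the Ad-OSCAR cultures. *Il13ra2*, a decoy receptor of interleukin-13, and *Slc15a3*, a lysosomal peptide transporter with exons that overlap *Tmem132a* on the other strand, rose by 4.96 and 5.27. *Ccbe1*, which processes VEGF-C, rose by 4.66, and *Ptgs2*, *Mmp10* and *Mmp12* by 5.20, 5.84 and 5.07. *Ppp1r1b* (DARPP-32), a phosphatase inhibitor known from neurons, was at 29.4, 25.8 and 29.4 CPM in the Control cultures and 0.441, 0.164 and 0.255 CPM in the Ad-OSCAR cultures. *Fzd9*, a WNT receptor, *Kcns1*, a potassium channel subunit, *Galnt9*, a glycosyltransferase, and *Cdsn* (corneodesmosin) fell by 6.06, 5.59, 5.42 and 5.13 on the log2 scale.

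**Figure D5:**
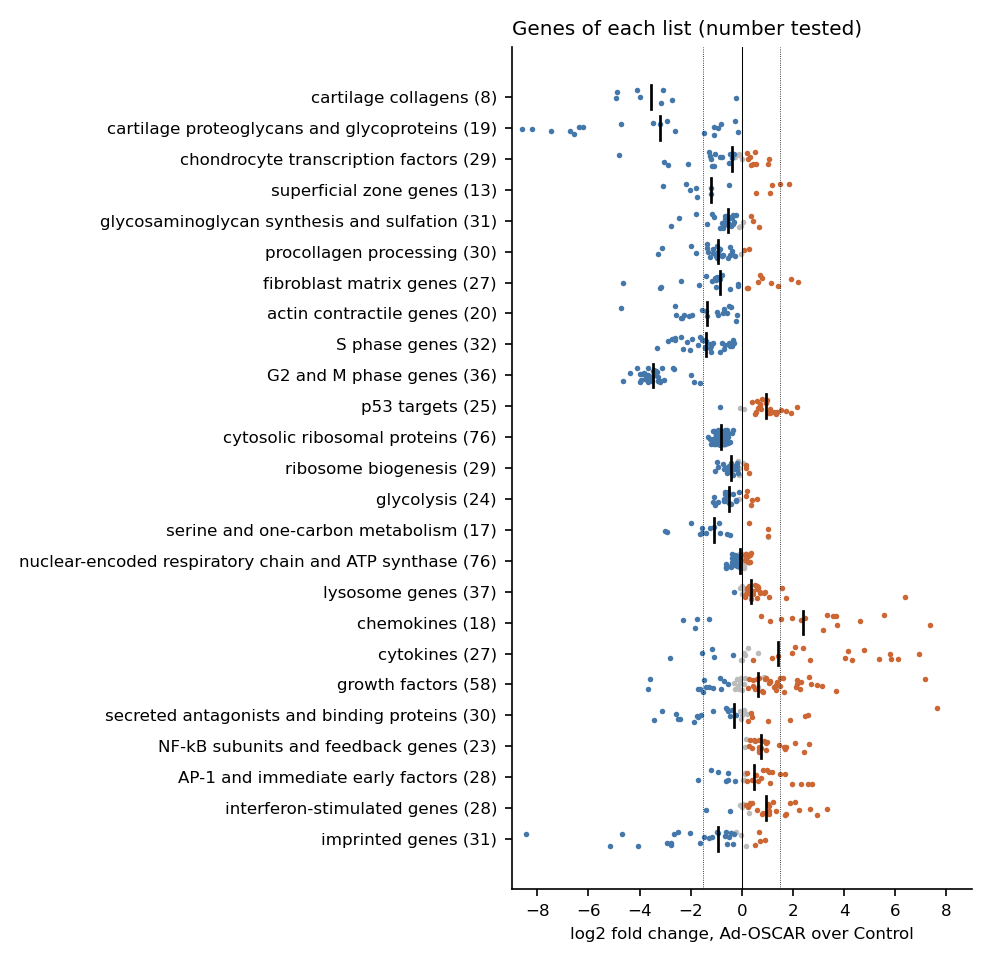
Log2 fold change of each gene tested in 25 lists (number tested in brackets), Ad-OSCAR over Control. Orange points rose and blue points fell, grey points were not called, the black bar is the list's median, and dotted lines mark the |log2FC| limit of 1.5 for a DEG. All G2 and M phase genes lie left of the limit (median -3.49), the ribosomal proteins are lower within a narrow range, and the chemokines include 12 upregulated DEGs (median 2.40).

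Markers of other cells were also examined. Of 24 macrophage markers, 8 had enough counts to be tested, with 4 higher and 2 lower. Defining markers, *C1qa*, *C1qb*, *C1qc*, *Cd163* and *Tyrobp* among 8 in all, had 0 counts in all 6 cultures. *Cd68*, a lysosomal marker, rose from 1.99 to 8.21 CPM, *Cd14* rose by 1.07 and *Csf1r* was below 1 CPM in both groups. The markers summed to 25.8 TPM in Control and 53.8 TPM in Ad-OSCAR, and their part in the rise of inflammatory genes was not tested. Of 20 lymphocyte markers 3 were tested, 2 of them higher, and 9 were at 0 in all 6 cultures, and *Trdc*, a T cell receptor constant region, had 1 count in Control in all against 129 to 192 in each Ad-OSCAR culture (95% counting interval of the ratio from 69.3 to 15362). Of 18 skeletal muscle markers 6 were tested, with 1 higher and 2 lower, and *Myod1* and *Myog* were at 0. Among tenocyte and synovial markers 5 of 12 were higher and 7 lower, with *Pdpn* (1.29) and *Prg4* higher and *Fmod* (-2.62) and *Thy1* (-2.53) lower. Of 9 osteoblast markers 3 were higher and 4 lower. Endothelial (2 higher and 3 lower of 6), adipocyte (2 higher and 3 lower of 5) and glial or neural markers (1 higher and 5 lower of 8) changed in both directions, and of 8 osteoclast markers tested, *Oscar* included, 6 were higher, among them *Itgb3* (2.26), and 1, *Acp5* (-0.62), was lower.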

How the data were processed

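RNA sequencing of polyadenylated RNA was done in 9 cultures of mouse chondrocytes, 3 per group, and the labels gave the groups. The authors trimmed reads with BBDuk, aligned them with STAR 2.7.1a to GRCm38 (mm10) and estimated counts per gene with RSEM 1.3.1, by the submitters' processing notes and the methods. The deposited expected counts were rounded to whole numbers, since RSEM divides reads that match several genes and not all values are whole. The deposited TPM values were used for levels and the deposited FPKM values were not used. Whether counting used strand is not given in the sources used here, so genes whose exons overlap another gene by at least 100 bases are named as such.

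Of 55471 genes, 15362 passed edgeR's filter on low counts (filterByExpr) over the 9 cultures. TMM scaling and the quasi-likelihood test of edgeR 4.0.16 in R 4.3.3 were fitted to all 9 cultures, with Ad-OSCAR against Control as the contrast, and p-values were adjusted over all genes tested by Benjamini-Hochberg. The biological coefficient of variation was 5.11%. The test was first run on simulated counts in which far fewer genes changed, evenly up and down. That run does not check the scaling or the error rate for a difference as broad as this one. Alternatives were DESeq2 1.42.0, other scaling and filters, the 6 compared cultures alone, a fold limit inside the test, a replicate block and leaving out each culture. Windows around gene starts came from RefSeq (GRCm38.p6) and positions from GENCODE M21, which held 55144 of the genes. Tables and plots used Python 3.11.15, pandas 2.3.3, numpy 2.4.6, scipy 1.17.1 and matplotlib 3.10.9.

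The genes named were the 12 protein-coding DEGs in each direction with the largest log2FC at a mean of at least 5 CPM, the 6 with the largest difference in mean CPM, the 10 leading transcription factors and the 10 leading secreted factors at a mean of at least 1 CPM, and in each list the 3 with the largest change in each direction and the 1 with the highest level. Further genes were named as parts of a pathway after their values were seen. The gene lists and the rule were chosen with earlier results of these data known. The lists of ribosomal proteins, TOP translation factors, imprinted genes, integrins, theta glutathione S-transferases, the IL-1 family and histones, and the CCAAT and CHR motifs, were added after the values were seen, and the name pattern for homeobox factors was narrowed then. Some genes are not reported here.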

Additional observations from a re-analysis of the deposited data

How the results depend on the processing

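The counts of upregulated DEGs depended on how low counts and the fold limit were treated. They were 352 when each of the 6 cultures had to hold at least 10 counts, 370 with the fold limit inside the test (glmTreat of edgeR) and 1265 at a |log2FC| limit of 1, against 702. Downregulated DEGs numbered 569, 562 and 1438, against 828. With no filter on low counts there were 967 and 1077, and DESeq2 gave 794 and 954. Leaving out 1 culture at a time gave 715 to 786 upregulated and 848 to 901 downregulated DEGs, with 4655 to 4825 genes higher and 4664 to 4806 lower. Same-numbered cultures did not deviate together (r across genes of -0.0434, -0.0616 and -0.0724), and the fit with a replicate block gave 706 and 829 DEGs. No called gene named by the rule reversed, and 61 of 3742 combinations of a named gene and an alternative lost the call. The medians of the hypoxia, fatty acid oxidation, endothelial, muscle, osteoblast, integrin, IL-1 family and histone lists changed sign under at least 1 alternative. The median log2FC of all genes stayed between 0.009 and 0.025. The scaling methods keep it close to no change, so this range says nothing about a shift shared by most genes. The 3 cultures per group and the unknown number of animals limit how far these p-values reach, and genes at a few counts have wide ratio intervals.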

Other observations

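Imprinted genes, which are expressed from 1 parental copy and are high in fetal tissue, were mostly lower with Ad-OSCAR. In a list of 33 made after the values were seen, 24 of 31 tested were lower, 11 as DEGs, and 4 were higher, with a median log2FC of -0.93, beside 32.2% lower and 5.39% downregulated DEGs of all genes tested. *H19*, a long noncoding RNA, was at 7046, 6469.7 and 6551 CPM in the Control cultures and 189, 196 and 184 CPM in the Ad-OSCAR cultures. *Mest*, which overlaps *Copg2* on the other strand, fell by 4.67, and *Peg3* by 2.51 on the log2 scale. *Magel2* had a ratio of Control over Ad-OSCAR with a 95% counting interval from 87.4 to 19396.

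Integrins and collagen receptors, *Oscar* included, changed in both directions. Of 24 tested, 11 were higher and 9 lower (45.8% and 37.5%, beside 32.7% and 32.2% of all genes tested). One of those higher is therefore *Oscar*, which the virus supplied. *Itga10*, the integrin of cartilage that binds type II collagen, was at 28.1, 26.8 and 25.7 CPM in the Control cultures and 5.84, 6.15 and 5.46 CPM in the Ad-OSCAR cultures, and *Itga6* fell by 1.96 on the log2 scale. *Itga9* and *Itgb3* rose by 3.00 and 2.26. Of 25 HOX factors, which set position along the limb, 14 were higher and 2 lower, and *Hoxc6* was at 8.92, 9.82 and 9.09 CPM in the Control cultures and 25.1, 26.3 and 28.3 CPM in the Ad-OSCAR cultures. Of 51 replication-dependent histone genes listed, 35 had too few counts to be tested in these libraries of polyadenylated RNA. Of the 16 tested, 10 were higher and 2 lower, with a median of 0.73 that was negative under DESeq2. Whether these 16 stand for the histone genes as a whole was not tested.

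Some DEGs lay next to each other. *Ddt*, *Gstt3*, *Gstt1*, *Gstt4* and *Gstt2*, which encode a tautomerase and glutathione S-transferases, were all upregulated DEGs in 1 run of neighbouring tested genes (chr10:75771230-75837424 of GRCm38), and reads of the similar Gstt genes could have been divided. *Gstt1* was at 4.34, 5.88 and 5.44 CPM in the Control cultures and 17.6, 20.2 and 14.5 CPM in the Ad-OSCAR cultures. There were 66 upregulated DEGs with at most 3 counts in every Control culture and at least 10 in every Ad-OSCAR culture, and 35 downregulated DEGs with the opposite pattern.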
